A study of Mus musculus with 10 samples.

Results

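The transcripts described here are 9 genes that build or regulate the cytoskeleton of nerve cells (Mapt, Tagln3, Stmn1, Stmn2, Stmn3, Tubb3, Nefl, Nefm and Crmp1) and Sox1, a transcription factor of early neural cells. They were taken by symbol, and each symbol matched a single row, so they are 10 of the 55401 genes in the deposited table. The values are TPM, a transcript level corrected for length and scaled to the same total in every library. Of the 10 genes 9 averaged 1 TPM or more and were tested, among 12797 genes in all. Crmp1 averaged less and was not tested.

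All 10 libraries were poly(A) RNA of E14, an untreated mouse embryonic stem cell line. The wild-type group has 4 libraries, in sets 1 and 2 with 2 libraries each. The group labelled with the ANKRD11 Y347A mutation, made by CRISPR/Cas9 editing, has 6 libraries, in sets 1, 2 and 3 with 2 libraries each. The series concerns ANKRD11, a nuclear regulator of transcription, its contact with cohesin, and neural and facial development. What a set stands for (a clone, a culture or a day) and whether the edit is on both alleles are not in the labels. The p-values between genotypes therefore rest on the spread of these sets, and part of it may be technical. Those between sets of the same genotype rest on the spread of the 2 libraries within a set, which may be technical repeats. A substituted residue can leave the amount of Ankrd11 mRNA as it was, so that amount is no check of the genotype labels.

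Microtubules are polymers of alpha- and beta-tubulin that lengthen and shorten at their ends. Tau and other associated proteins bind and stabilise them in axons, stathmins sequester free tubulin and promote their shortening, and neurofilaments fill large axons and set their calibre. Several of these genes are used as markers of young neurons, and Sox1 is among the earliest markers of the neural plate, while a few, such as Stmn1, are also abundant in dividing cells. In bulk RNA, fewer cells of a type and less RNA per cell cannot be told apart.

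Levels below are TPM averaged by set and then over sets, ± SD (n = 2 for wild type, n = 3 for mutant). A log2 fold change is mutant minus wild type ± SE, taken by limma from set means of log2(TPM + 1), a scale on which low genes change by less than their TPM. A gene was called when its p, adjusted by the Benjamini-Hochberg method over all 12797 genes, was under 0.05. By that rule Stmn2, Stmn3 and Sox1 rose in the mutant and Mapt and Tagln3 fell, 5 of the 9 tested genes, while 17.5% of all tested genes were called. These genes were chosen with earlier results of these data known. This and the later counts against all tested genes are therefore descriptions and no measure of enrichment. The calls split into 3 higher, against 6.97% of all tested genes, and 2 lower, against 10.5%. The median log2 fold change of the 9 genes was -0.08, and that of all tested genes -0.04. All 9 averaged 1 TPM or more in both genotypes, so none entered through 1 genotype alone. With wild-type set 1 or set 2 left out, limma called 0 of the 9, and 5 had an unadjusted p under 0.05. In those fits 2.04% and 0.76% of all tested genes were called, and 24.2% and 21.8% had an unadjusted p under 0.05.

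**Figure D1:**
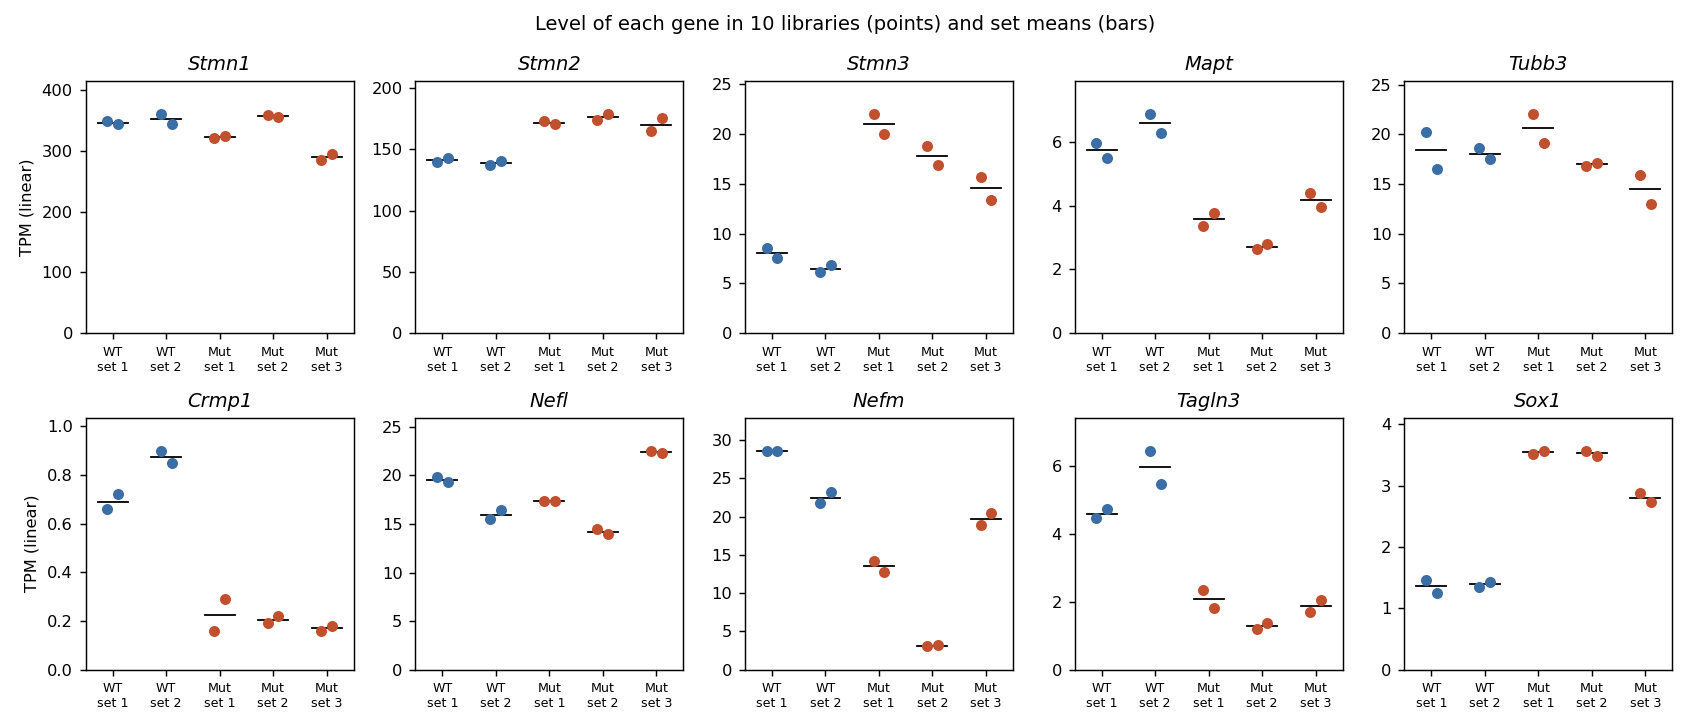
Level of each of the 10 genes in TPM on a linear axis from 0, by library (points) and set mean (bars), with wild-type sets in blue and mutant sets in orange. Stmn2, Stmn3 and Sox1 are higher in all 6 mutant libraries than in any wild-type library, Mapt, Tagln3, Nefm and Crmp1 are lower in all 6, and the points of Stmn1, Tubb3 and Nefl overlap.

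In 6 of the 9 tested genes no mutant library fell within the range of the wild-type libraries and all 6 lay on the same side, as they did in 31.8% of all tested genes. These were the 5 called genes and Nefm. The plot of TPM by library also shows how far the 3 mutant sets lay from each other. The mutant sets differed in 5 of the 9 genes (Mapt, Stmn1, Stmn3, Nefl and Nefm) by limma's F test over the 10 libraries, against 19.6% of all tested genes. The wild-type sets differed in 1 gene, Nefl, against 2.75% of all tested genes.

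Promoter sequence is shown for 3 genes: Stmn3 and Tagln3, which had the largest called changes of the 10 genes in each direction on the log2 scale, and Crmp1, the untested gene with the lowest ratio of mutant to wild-type TPM. RefSeq promoter windows, of 250 bases before and 50 bases after a start site on GRCm38.p6, were held for 5 of the 10 genes (Stmn3, Crmp1, Sox1, Tubb3 and Tagln3), with 2 windows for Crmp1. Each line gives the bases before the start that lie outside the gene as GENCODE M21 draws it, 5′ to 3′ on the gene's own strand. The stretches are chr2:181314501-181314750 on the minus strand for Stmn3, chr16:45724609-45724781 on the minus strand for Tagln3 and chr5:37241808-37241939 on the plus strand for Crmp1. Capitals mark matches, on either strand, to the motifs given below.
Stmn3: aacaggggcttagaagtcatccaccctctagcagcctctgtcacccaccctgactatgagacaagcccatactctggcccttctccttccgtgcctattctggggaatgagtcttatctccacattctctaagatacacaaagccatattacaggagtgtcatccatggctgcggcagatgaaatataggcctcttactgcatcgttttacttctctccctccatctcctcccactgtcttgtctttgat
Tagln3: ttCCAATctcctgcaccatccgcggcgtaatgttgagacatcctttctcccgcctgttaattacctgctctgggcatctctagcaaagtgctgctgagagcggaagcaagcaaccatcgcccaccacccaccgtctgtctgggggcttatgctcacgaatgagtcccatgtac
Crmp1: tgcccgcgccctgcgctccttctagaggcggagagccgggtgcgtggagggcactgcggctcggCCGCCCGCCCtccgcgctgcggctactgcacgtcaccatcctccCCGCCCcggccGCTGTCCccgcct

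The motifs searched on both strands of the whole windows were the left (TTCAGCACC) and right (GGACAGC) parts of RE1, the element bound by the neuronal gene repressor REST, the SOX core ACAATG, the CCAAT box, the GC box GGGCGG and the TATA box TATAAA. Over all 32851 windows they were found in 0.371%, 6.56%, 12.6%, 37.4%, 35.7% and 13.6%. No match was found in the Stmn3 window. Tagln3 held 1 CCAAT, 248 bases before its start. The Crmp1 window shown held 5 GC boxes, of which the first 2 and the last 2 overlap and 3 lie in the stretch shown, and 1 right part of RE1 at 131 bases before the start. Its other window held 2 GC boxes. The Sox1 window (chr8:12395269-12395568, plus strand) held 3 GC boxes and 1 CCAAT. Only the Tubb3 window (chr8:123411303-123411602, plus strand) among the 6 held the SOX core, at 146 and 96 bases before the start, and it held the right part of RE1 at 12 bases after it, with 1 CCAAT and 2 GC boxes. The windows also differ in composition. Stmn3's is 49.7% GC with an observed-to-expected CpG ratio of 0.348, Tagln3's is 57.3% with 0.611, Tubb3's is 67.3% with 0.765, Sox1's is 70.7% with 1.07, and that of Crmp1 shown here is 77.0% with 0.955. The medians over all windows are 52.7% and 0.384, so Stmn3 lay below both and the others above both. A match here is a run of letters, not a bound site.

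Stmn1 and Stmn2 were the most abundant of these genes, and the stathmins' shares of the family's summed TPM lay apart in the 2 genotypes. Stmn3, a stathmin of neurons that is anchored to Golgi and vesicle membranes (ENSMUSG00000027581.12, mm10 chr2:181306459-181314500, minus strand), stood at 8.54 and 7.55 TPM in wild-type set 1 and at 6.14 and 6.80 TPM in set 2. Mutant libraries read 22.03 and 20.01 TPM (set 1), 18.8 and 16.9 TPM (set 2) and 15.7 and 13.4 TPM (set 3). Every mutant library was above every wild-type library, and mutant set 1 was the highest. The mean rose from 7.26 ± 1.11 to 17.8 ± 3.24 TPM, 2.45-fold (log2 fold change 1.18 ± 0.17, 95% interval 0.78 to 1.57, adjusted p = 0.00921). The mutant sets, at 21.02, 17.8 and 14.5 TPM, also differed from each other (F test adjusted p = 0.0322). That call ended when either library of mutant set 1 (0.0837 and 0.0568), either of set 2 (0.0611 and 0.0586) or the second of set 3 (0.128) was left out, and with no filter on low genes (0.0769). With a single wild-type set the genotype call ended narrowly, at adjusted p = 0.0511 without wild-type set 1 and 0.0925 without set 2, where the lone set is assumed to vary like the mutant sets.

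Stmn2, also called SCG10, a growth cone stathmin that is raised in regenerating axons (ENSMUSG00000027500.10, chr3:8509360-8561606, plus strand), stood between 137 and 143 TPM in the 4 wild-type libraries. The 6 mutant libraries stood between 165 and 179 TPM. The groups did not overlap, and the mutant sets did not pass the test of a difference among themselves (F test adjusted p = 0.551). The mean rose from 140.2 ± 1.90 to 173 ± 3.28 TPM, 1.23-fold (log2 fold change 0.30 ± 0.06, 95% interval 0.15 to 0.45, adjusted p = 0.0227). The change was small in size, but Stmn2 was a high transcript already in wild-type cells, at the percentile 92.8 of all tested genes. Its call ended without mutant set 1 (adjusted p = 0.0543), mutant set 3 (0.0547), wild-type set 1 (0.119) or wild-type set 2 (0.160), with the set number as a replicate block (0.107), and with variance moderation without a trend (0.0628).

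Stmn1, the ubiquitous stathmin of dividing cells (ENSMUSG00000028832.11, chr4:134468320-134473843, plus strand), was the most abundant of the 10 genes. It stood at 349, 344, 361 and 345 TPM in the wild-type libraries, and at 321 and 324, 359.9 and 356, and 285 and 294 TPM in mutant sets 1 to 3. Mutant set 2 lay among the wild-type libraries, set 1 lay below them and set 3 was the lowest. The means were 349.5 ± 4.64 and 323 ± 34.1 TPM (log2 fold change -0.12 ± 0.09, 95% interval -0.34 to 0.10, adjusted p = 0.409), and the sign turned to 0.03 with quantile normalization. Between the mutant sets the gene differed (F test adjusted p = 0.00296). A processed pseudogene, Gm11223, matches the Stmn1 transcript at 97.6% over 460 bases, and was listed at 12.2 TPM in the wild type and 10.3 in the mutant. How reads were split between the 2 copies is uncertain.

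As shares of the summed stathmin TPM, Stmn1 made up 70.3 ± 0.697% in wild-type and 62.8 ± 1.88% in mutant sets. Stmn2 made up 28.2 ± 0.469% and 33.7 ± 1.98%, and Stmn3 made up 1.46 ± 0.228% and 3.46 ± 0.542%. Stmn4, the remaining stathmin, was listed at 0 in all 10 libraries. The summed level was 497 ± 1.62 and 514 ± 38.9 TPM, so the shares moved while the sums of the 2 genotypes lay within the spread of the mutant sets. The ratio of Stmn2 to Stmn1 lay between 0.380 and 0.417 in the wild-type libraries and between 0.484 and 0.597 in the mutant libraries, with no overlap. No test was run on these shares or ratios.

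**Figure D2:**
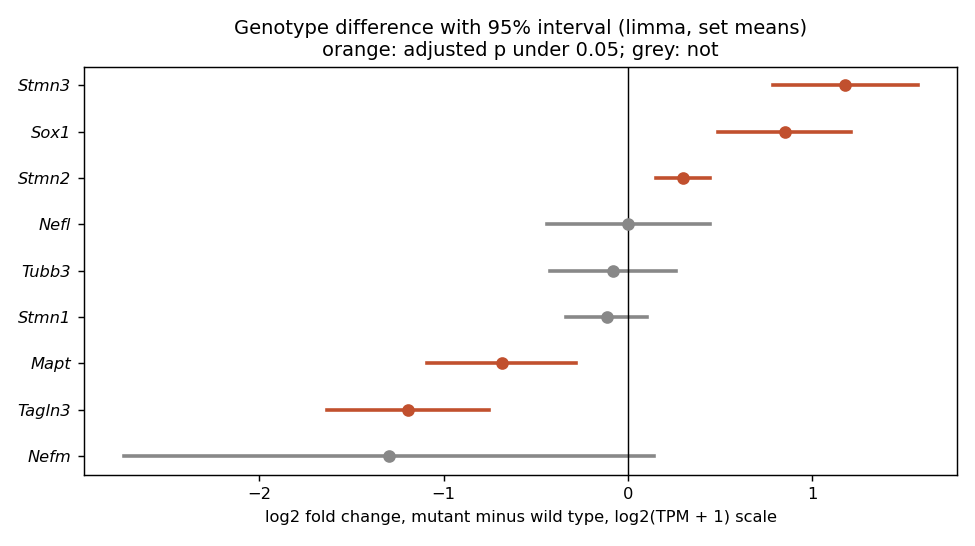
Difference between mutant and wild-type sets for the 9 tested genes as a log2 fold change on the log2(TPM + 1) scale (points) with its 95% interval (lines), in orange where the adjusted p was under 0.05. Stmn3 (1.18), Sox1 (0.85) and Stmn2 (0.30) lie above 0 and Mapt (-0.69) and Tagln3 (-1.19) below it, and the interval of Nefm is the widest of the 9.

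Mapt, which encodes tau, the axonal microtubule-binding protein (ENSMUSG00000018411.17, chr11:104231390-104332090, plus strand, 12 annotated transcripts), fell in the mutant. It stood at 5.98 and 5.49 TPM in wild-type set 1 and 6.88 and 6.28 in set 2. The pairs of mutant libraries were 3.37 and 3.77, 2.63 and 2.78, and 4.39 and 3.95 TPM for sets 1 to 3. The highest mutant library remained below the lowest wild-type library. The mean fell from 6.16 ± 0.598 to 3.48 ± 0.736 TPM, a ratio of 0.565 (log2 fold change -0.69 ± 0.17, 95% interval -1.09 to -0.28, adjusted p = 0.0375). The mutant sets differed, with set 2 lowest (F test adjusted p = 0.0351). That second call ended when any 1 wild-type library (0.0536 to 0.0567) or any 1 library of mutant sets 2 or 3 (0.0737 to 0.135) was left out, with quantile normalization (0.0933) and with no filter on low genes (0.0884). The genotype call ended without the first library of mutant set 1 (0.0543), the second library of mutant set 3 (0.0527), mutant set 1 (0.0891), wild-type set 1 (0.132) or wild-type set 2 (0.217), with the set number as a replicate block (0.0766), and with no filter on low genes (0.117).

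Tubb3, the beta-III tubulin used as a marker of neurons (ENSMUSG00000062380.4, chr8:123411424-123422015, plus strand), was not called. Its levels were 20.2, 16.6, 18.7 and 17.5 TPM in the wild-type libraries, and 22.1 and 19.2, 16.9 and 17.1, and 16.0 and 13.04 TPM in mutant sets 1 to 3. The groups overlapped, with the highest and the lowest library both mutant. The means were 18.2 ± 0.230 and 17.4 ± 3.08 TPM (log2 fold change -0.08 ± 0.14, 95% interval -0.42 to 0.26, adjusted p = 0.725), and the sign turned to 0.04 without mutant set 3 and with the set number as a replicate block. The F test between mutant sets gave an adjusted p of 0.061, which passed under median-of-ratios scaling (0.0359), quantile normalization (0.0341) and a mean of at least 5 TPM (0.0469). Tubb3 was 1.04 ± 0.0473% of the summed beta-tubulin TPM in wild-type and 1.09 ± 0.190% in mutant sets, and Tubb5 was 49.4% and 49.2%. Tubb3 lies 369147 bases from Ankrd11 on the same chromosome and inside the annotated span of the predicted gene Gm20388, at 21.2 and 17.3 TPM, which shares its strand, so how the reads were split between them is uncertain.

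Crmp1, a collapsin response mediator that carries semaphorin signals to the cytoskeleton (ENSMUSG00000029121.16, chr5:37241940-37292133, plus strand), was below 1 TPM in every library. It stood at 0.66 and 0.72 TPM in wild-type set 1 and at 0.90 and 0.85 in set 2. Its mutant values by set were 0.16 and 0.29, then 0.19 and 0.22, then 0.16 and 0.18 TPM. The groups did not overlap, and the means were 0.783 ± 0.131 and 0.200 ± 0.0278 TPM, 3.91-fold lower in the mutant. With no filter on low genes the limma adjusted p was 0.0368 with a log2 fold change of -0.57. Depth is unknown in TPM, so the counting error at this level could not be given. The annotated span of Crmp1 also overlaps that of Evc, a protein-coding gene on the opposite strand. Evc had a higher mean than Crmp1 in both genotypes and was not called. The strand mode of the counting is unknown, so how reads from the shared stretch were split between Crmp1 and Evc is uncertain. Crmp1 made up 12.1 ± 1.10% of the summed TPM of its family of 5 in wild-type and 3.66 ± 0.0933% in mutant sets, while Dpysl2 (CRMP2) made up 41.4% and 64.5%. The shares of Dpysl3 (18.0% and 8.42%) and Dpysl5 (23.5% and 14.6%) were also lower in the mutant. That of Dpysl4 was higher (5.04% and 8.90%). The family's sum was 6.46 ± 0.523 and 5.42 ± 0.588 TPM.

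**Figure D3:**
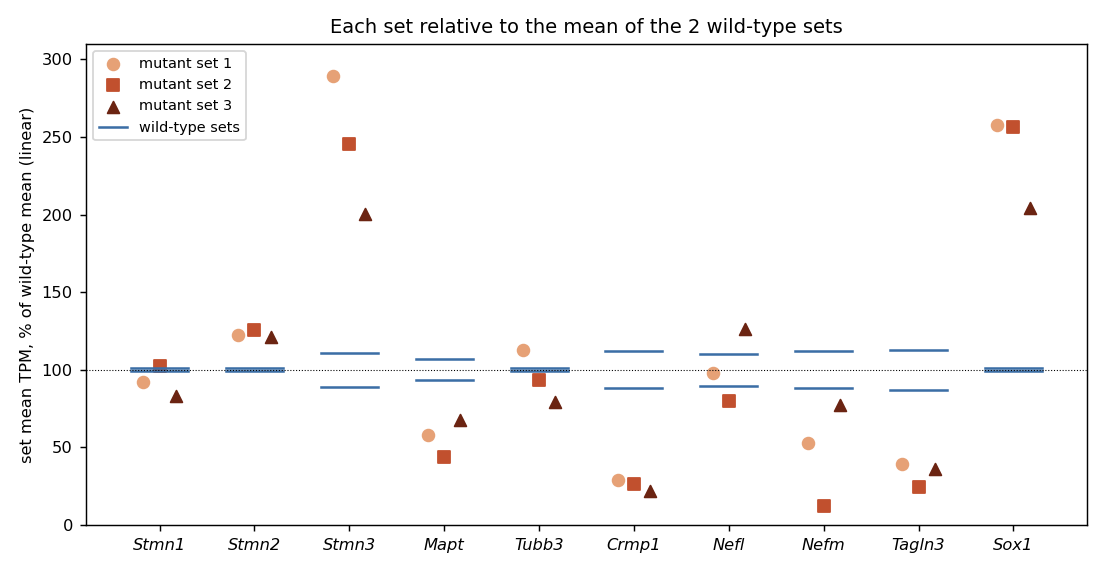
Mean TPM of each mutant set (circle, square and triangle for sets 1, 2 and 3) as a percentage of the mean of the 2 wild-type sets (blue lines, 1 for each wild-type set), on a linear axis, for the 10 genes. Mutant set 2 is at 12.2% for Nefm, the lowest point of the plot, and Stmn3 and Sox1 are the only genes of the 10 at 200% or more in all 3 mutant sets.

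The light and medium neurofilament chains, which assemble together into the filaments of axons, kept a near-constant ratio in the wild-type libraries and had lower ratios, which differed by set, in the mutant. Nefm (ENSMUSG00000022054.11, chr14:68082590-68124846, minus strand) stood at 28.6 and 28.5 TPM in wild-type set 1 and 21.8 and 23.2 in set 2. Mutant libraries read 14.3 and 12.8 TPM (set 1), 3.05 and 3.17 TPM (set 2) and 19.0 and 20.5 TPM (set 3). All mutant libraries were below all wild-type libraries, and set 2 was far below the rest, while the 2 libraries within each set lay close. The means were 25.5 ± 4.30 and 12.1 ± 8.39 TPM, and the difference between genotypes did not pass the test (log2 fold change -1.30 ± 0.61, 95% interval -2.74 to 0.14, adjusted p = 0.178). It passed when the 10 libraries were fitted with no set term (0.0484), which takes the 2 libraries of a set as independent. It also passed with the set number as a replicate block (0.0428). In that block fit mutant set 3 has no wild-type partner and does not bear on the log2 fold change (-1.77). Without mutant set 3 the main limma fit gave an adjusted p of 0.0959, and robust moderation with all sets gave 0.332. Without mutant set 2, the lowest, the log2 fold change shrank to -0.61 (limma adjusted p = 0.0808), so much of its size rests on that set. Between the mutant sets Nefm differed (F test adjusted p = 2.2e-05), with set 2 lower than set 1 by 1.82 and set 3 higher than set 1 by 0.51 on the log2 scale. Mitochondrial transcripts took 8.67 to 8.71% of the TPM in mutant set 2, 6.86 to 7.03% in set 1, 7.81 to 7.98% in set 3 and 6.19 to 6.98% in the wild type, and their part in the result was not tested.

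Nefl (ENSMUSG00000022055.7, chr14:68083863-68089095, plus strand) stood at 19.9 and 19.3 TPM in wild-type set 1 and 15.5 and 16.4 in set 2. The pairs of mutant libraries were 17.4 and 17.4, 14.5 and 14.0, and 22.6 and 22.3 TPM for sets 1 to 3. The wild-type libraries lay within the range of the mutant ones. The means were 17.8 ± 2.57 and 18.0 ± 4.16 TPM (log2 fold change 0.00 ± 0.19, 95% interval -0.44 to 0.44, adjusted p = 0.994), with either sign among the fits that leave out a set or library. The mutant sets differed (F test adjusted p = 0.00151), again with set 2 lowest and set 3 highest. Nefl was also the gene of the 10 that differed between the wild-type sets, set 2 lower than set 1 by 0.28 on the log2 scale (adjusted p = 0.0449). That call ended when any 1 of the 4 wild-type libraries (adjusted p 0.114 to 0.212) or any 1 library of mutant sets 2 or 3 (0.0768 to 0.0840) was left out. It also ended with no filter, either other scaling, and robust or trend-free moderation (0.0504 to 0.0667). Nefm, at 0.33 lower in wild-type set 2, had an adjusted p of 0.0645 there, which passed without either library of mutant set 1 (0.0399 and 0.0388).

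**Figure D4:**
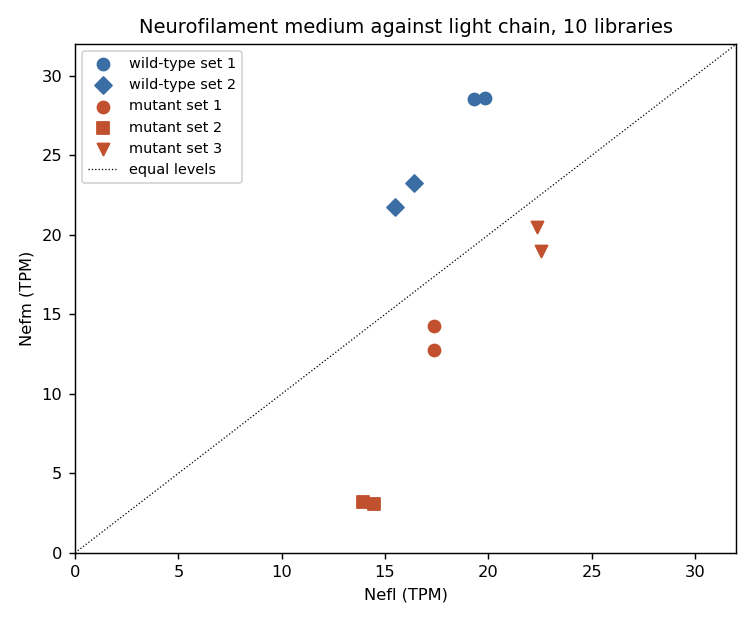
Nefm against Nefl in TPM on linear axes for the 10 libraries, by genotype (colour) and set (shape), with a dotted line at equal levels. The 4 wild-type libraries lie above the line and the 6 mutant libraries below it, with mutant set 2 the farthest from it at about 3 TPM of Nefm.

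The ratio of Nefm to Nefl lay between 1.41 and 1.48 in all 4 wild-type libraries. It was 0.822 and 0.735 in the libraries of mutant set 1, 0.211 and 0.227 in those of set 2 and 0.840 and 0.916 in those of set 3. The plot of Nefm against Nefl thus has the medium chain above the light chain in each wild-type library and below it in each mutant library. No test was run on this ratio. Of the summed TPM of 5 axonal filament genes (with Nefh, Ina and Prph), Nefm made up 53.6 ± 2.57% in wild-type and 33.2 ± 16.0% in mutant sets, and Nefl 37.3 ± 0.894% and 56.8 ± 9.73%. The 2 genes are neighbours on opposite strands. An annotated Nefm transcript of 4 exons covers 1108 bases of the Nefl exons, 32.8% of the Nefl transcript, and the other Nefm transcript covers none. No source used here states the strand mode of the counting, so reads from the shared stretch cannot be told apart.

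Tagln3, also called NP25, a calponin-related protein of neurons that binds actin and microtubules (ENSMUSG00000022658.10, chr16:45711230-45724608, minus strand), had the largest called fall of the 10 genes. It stood at 4.46 and 4.71 TPM in wild-type set 1 and 6.44 and 5.45 in set 2. Its mutant values by set were 2.34 and 1.81, then 1.20 and 1.38, then 1.71 and 2.06 TPM. The groups did not overlap. The mean fell from 5.27 ± 0.962 to 1.75 ± 0.410 TPM, 3.01-fold (log2 fold change -1.19 ± 0.19, 95% interval -1.63 to -0.75, adjusted p = 0.0116), and the mutant sets did not pass the test of a difference (F test adjusted p = 0.115). Its call ended without wild-type set 1 (0.0571) or wild-type set 2 (0.112) and with no filter on low genes (0.0558). Tagln3 made up 9.69 ± 1.63% of the summed transgelin TPM in wild-type and 2.86 ± 0.388% in mutant sets, the rest being almost all Tagln2, at 89.8% and 96.4%.

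Sox1, a SOXB1 transcription factor of neural progenitors with a single exon (ENSMUSG00000096014.1, chr8:12395295-12400126, plus strand), was low in both genotypes. It stood at 1.47 and 1.25 TPM in wild-type set 1 and 1.35 and 1.43 in set 2. Mutant libraries read 3.52 and 3.57 TPM (set 1), 3.57 and 3.48 TPM (set 2) and 2.88 and 2.73 TPM (set 3). The groups did not overlap, and mutant set 3 was the closest to the wild type. The mutant sets did not pass the test of a difference (F test adjusted p = 0.188), but passed it with variance moderation without a trend (0.045). The mean rose from 1.38 ± 0.0212 to 3.29 ± 0.422 TPM, 2.39-fold (log2 fold change 0.85 ± 0.15, 95% interval 0.49 to 1.21, adjusted p = 0.0169). Sox1 was at the percentile 5.99 of the tested genes in wild-type cells and was 0.471 ± 0.0359% of the summed SOXB1 TPM there, against 1.14 ± 0.118% in the mutant, where Sox2 made up nearly all of the rest. Its call ended without mutant set 1 (0.0568), wild-type set 1 (0.0934) or wild-type set 2 (0.118), with the set number as a replicate block (0.0565), and with no filter on low genes (0.0631). Sox1ot, a transcript whose span holds Sox1, reached at most 0.10 TPM in any library.

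TPM is corrected for length, so the 10 levels can be ordered. In wild-type cells the order was Stmn1, Stmn2, Nefm, Tubb3, Nefl, Stmn3, Mapt, Tagln3, Sox1 and Crmp1, and Tubb3 and Nefl, Stmn3 and Mapt, and Mapt and Tagln3 were within the spread of their sets. In the mutant it was Stmn1, Stmn2, Nefl, Stmn3, Tubb3, Nefm, Mapt, Sox1, Tagln3 and Crmp1. There Nefl, Stmn3, Tubb3 and Nefm were within the spread of their sets, as were Mapt and Sox1, and mutant set 2 of Nefm lay within the range of Mapt. Stmn3 thus stood beside Mapt in the wild type and beside Nefl and Tubb3 in the mutant.

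For each called gene the 3 genes most alike over the 10 libraries, by Pearson correlation of log2(TPM + 1), are given. Predicted genes, named Gm with a number or ending in Rik, were passed over. The correlations are a description, since libraries of a set are not independent. Those of Stmn3 were Ctsd (r = 0.986), Grn (0.986) and Ahnak2 (0.985), and those of Sox1 were Cavin1 (0.989), Cdc42ep2 (0.988) and Ctsd (0.988). Ctsd, the lysosomal protease cathepsin D, was thus on both lists, at 115 TPM in the wild type and 203 in the mutant. Ctsd was itself higher in the mutant by limma (log2 fold change 0.82, adjusted p = 0.00617). Libraries of both genotypes enter r, so a difference between genotypes that a pair of genes shares raises r by itself. Stmn2 was most like Mecr (0.988), Ephx1 (0.987) and Trim11 (0.982). Tagln3 was most like Gstm2 (0.995), Frmd6 (0.987) and Calu (0.984), and Mapt most like Arl1 (0.989), Pspc1 (0.984) and Alkbh2 (0.983).

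The other genes of the same machinery were read from 11 lists, which include the 10 genes where they belong. Over all tested genes 6.97% were called higher and 10.5% lower, and the lists are short. Among 14 tested tubulins 1 rose and 1 fell (median log2 fold change -0.10). Tuba3a fell from 44.2 ± 16.2 to 20.3 ± 3.95 TPM (-1.06 ± 0.24, adjusted p = 0.0285), and Tubb6 rose from 54.2 ± 2.75 to 70.6 ± 5.91 TPM (0.37 ± 0.09, adjusted p = 0.0362). Of 25 tested microtubule-associated proteins 1 rose and 2 fell (median -0.01). Mapre3 (EB3), which tracks growing microtubule ends, rose from 1.93 to 3.66 TPM (0.67 ± 0.18, adjusted p = 0.0466), and Dclk2, a doublecortin-like kinase that binds microtubules, fell with Mapt, from 43.4 ± 6.13 to 25.0 ± 1.72 TPM (-0.77 ± 0.11, adjusted p = 0.00978). Of 12 tubulin chaperones and modifying enzymes, Svbp, the partner of the vasohibin enzymes that remove the end tyrosine of tubulin, fell from 38.3 to 28.7 TPM (-0.40 ± 0.08, adjusted p = 0.0208). Agbl5, which trims glutamate chains from tubulin, rose from 7.46 to 11.4 TPM (0.54 ± 0.14, adjusted p = 0.0409), and the median was 0.04.

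Of 10 tested intermediate filament genes none was called by limma (median -0.14) and 0 had an unadjusted p under 0.05, the 2 highest being Lmnb1, a nuclear lamin, at 205 and 175.6 TPM (adjusted p = 0.167) and Vim at 117 and 151 TPM (0.210). Of 13 growth cone and actin regulators 2 fell and none rose (median -0.15). Basp1, a membrane-bound growth cone protein, fell from 45.4 ± 2.44 to 10.2 ± 3.92 TPM (-2.12 ± 0.26, adjusted p = 0.00652), a larger log2 change than that of any of the 10 genes. Enah, which extends actin filaments, fell from 145 to 103 TPM (-0.48 ± 0.07, adjusted p = 0.00869). In the list of transgelins and calponins, with 4 tested, Cnn2 rose from 16.1 to 23.6 TPM (0.52 ± 0.10, adjusted p = 0.0196) beside the fall of Tagln3 (median 0.22). In the list of collapsin response mediators and related enzymes, with 3 tested, the 1 call was Dpys, a pyrimidine enzyme of the same protein family, which rose from 5.90 to 9.41 TPM (0.60 ± 0.16, adjusted p = 0.0455) with overlapping libraries (median 0.29). Of the 3 tested stathmins 2 rose (median 0.30), both described above.

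Tau is regulated by phosphorylation, and of 13 tested tau kinases, phosphatases and related enzymes 2 fell and none rose (median -0.05). Ppp2r2a, a regulatory subunit of the phosphatase PP2A, was among them and fell from 78.0 to 57.4 TPM (-0.44 ± 0.09, adjusted p = 0.0236). Many neuronal genes are held silent outside neurons by REST and its partners. Of 13 tested genes of that list 3 fell and 1 rose (median 0.00), while 10.5% of all tested genes were called lower and 6.97% higher. Rest fell from 52.5 ± 1.09 to 37.1 ± 3.19 TPM (-0.49 ± 0.09, adjusted p = 0.0181), Sin3a from 82.0 to 66.4 (-0.30 ± 0.08, adjusted p = 0.0458) and Hdac1 from 214 to 173 (-0.30 ± 0.08, adjusted p = 0.0450). Ctdsp1, a phosphatase recruited by REST, rose from 26.1 to 40.1 TPM (0.60 ± 0.15, adjusted p = 0.0393). Of 34 neural transcription factors 11 were tested, with Sox1 the one that rose. Hesx1, a homeobox factor of the anterior neural plate, was the one that fell, from 4.61 ± 0.817 to 0.865 ± 0.465 TPM (-1.62 ± 0.23, adjusted p = 0.00932), with a median of 0.03. The mutant mean of Hesx1 lay under the 1 TPM filter, so it was tested only through its wild-type libraries. That favours a call of lower, and its call is given as a description.

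**Figure D5:**
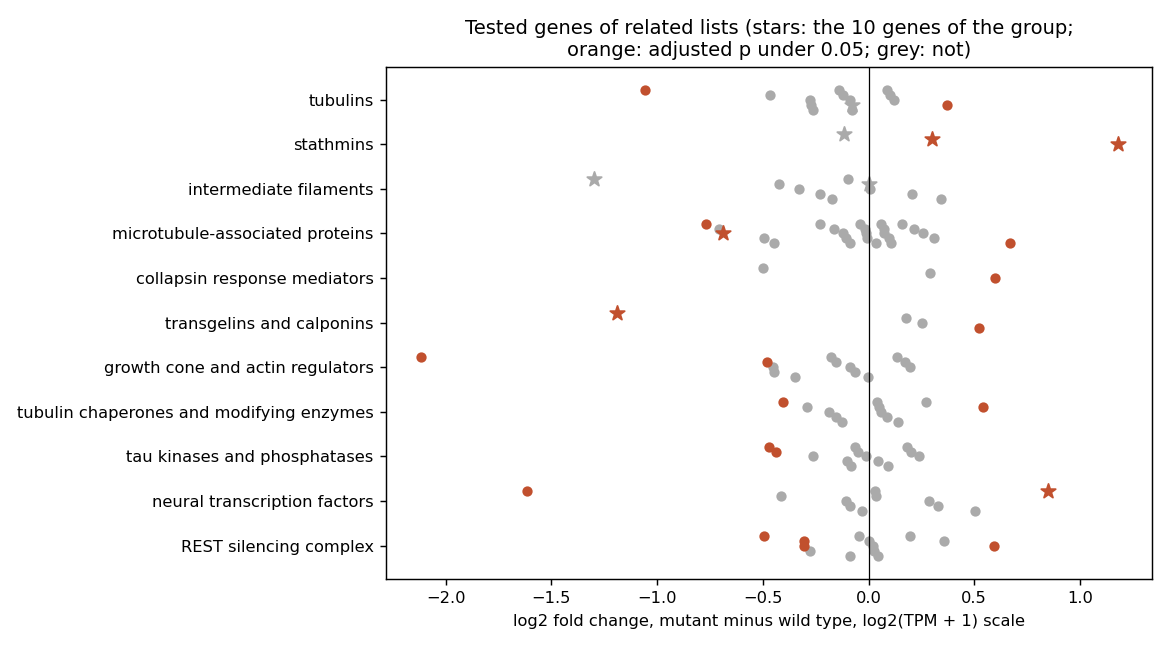
Log2 fold change, mutant minus wild type, on the log2(TPM + 1) scale for each tested gene of the 11 lists (rows), in orange where the adjusted p was under 0.05, with stars for the genes described one by one above. Most points of the longer lists lie near 0, while the 3 tested collapsin response mediators and related enzymes lie at 0.29, -0.50 and 0.60. Basp1 (-2.12) and Hesx1 (-1.62) lie farther from 0 than any star, of which Nefm (-1.30) is the farthest. Hesx1 passed the filter only through its wild-type libraries.

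The cells' own markers were checked for the label. All 10 embryonic stem cell markers were expressed, at a summed 10774 to 11444 TPM in wild-type and 9544 to 11365 TPM in mutant libraries. Of these Esrrb rose (0.28, adjusted p = 0.0365) and Nanog (-0.68) and Zfp42 (-0.50) fell, while 17.5% of all tested genes were called. Of 15 markers of mature neurons 12 were below 1 TPM in every library, Dcx and Slc17a6 were listed at 0 in all of them, and the summed level was 7.91 to 9.77 TPM in the wild type and 7.12 to 10.8 in the mutant, with none of the 3 tested markers called by limma and 0 at an unadjusted p under 0.05. The highest of these were Syn1 (2.54 and 2.52 TPM) and Gad1 (2.42 and 2.37 TPM). The 7 neural progenitor markers summed to 7.75 to 8.83 and 7.67 to 9.0 TPM, with Fabp7 and Olig2 at 0. Limma called neither tested gene, and 0 had an unadjusted p under 0.05, Nes (6.64 and 5.803 TPM) and Prom1 (1.42 and 2.48 TPM). The 10 glial markers summed to 25.9 to 29.4 and 34.0 to 43.7 TPM, with S100b and Slc1a2 at 0. Their 1 call of 4 tested, Aldh1l1, a folate enzyme, rose from 20.6 to 30.2 TPM (adjusted p = 0.0395). The 10 fibroblast or feeder markers summed to 5.0 to 7.51 and 5.70 to 7.01 TPM with Postn and Dcn at 0. Neither tested marker was called, though both had an unadjusted p under 0.05, Pdgfrb at 2.99 and 4.63 TPM (adjusted p = 0.0518) and Thy1 at 2.47 and 1.21 TPM (0.0667). The 7 primitive endoderm markers summed to 0.63 to 1.65 and 0.67 to 1.59 TPM with none tested. The part of these cell types in the results above was not tested.

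Of the 18 protein-coding genes next to the 10 genes on either side, 9 were tested, 2 rose and 1 fell, while 6.97% of all tested genes were called higher and 10.5% lower. Rtel1, a DNA helicase gene 5239 bases from Stmn3, rose from 66.7 ± 14.9 to 95.6 ± 8.42 TPM (0.53 ± 0.14, adjusted p = 0.0450). Pafah2, 40907 bases from Stmn1, rose from 7.86 ± 0.0707 to 12.1 ± 1.36 TPM (0.56 ± 0.12, adjusted p = 0.0251), while Stmn1 itself was not called. Dock5, the gene on the other side of the neurofilament pair at 149148 bases from Nefm, fell from 7.96 ± 1.59 to 4.17 ± 0.500 TPM (-0.79 ± 0.16, adjusted p = 0.0216). Kansl1 beside Mapt (-0.11), Abhd10 beside Tagln3 (0.01), Hey1 beside Stmn2 (0.04) and Def8 beside Tubb3 (0.00) were not called, nor were Gmeb2 beside Stmn3 (0.20) and Paqr7 beside Stmn1 (0.56).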

How the data were processed

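The authors deposited TPM per gene and library, made with Trim Galore, STAR and RSEM on mm10, with DESeq2 also named, per the submitters' processing notes. Versions, annotation and strand mode are given in none of the sources used here. All 10 columns were matched to samples by name, 0 were left out, and library totals are 1000000 TPM but for rounding. Depth is thus unknown and counting error could not be given. A library had 12473 to 12812 genes at 1 TPM or more. The members and lists were chosen with earlier results of these data known.

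Genes averaging 1 TPM or more were transformed to log2(TPM + 1), and the 2 libraries of each set were averaged. In limma 3.58.1 (R 4.3.3, two-sided, eBayes with trend, residual degrees of freedom 3 and prior 4.01) 2 wild-type sets were compared with 3 mutant sets. Sets were compared over the 10 libraries (5 residual and 2.86 prior degrees of freedom). The scripts were tested on simulated data. Named genes were the 10 members, up to 4 called genes per list by size of change or the 2 highest where none was called, tested neighbours, and the 3 genes most alike. Positions are from GENCODE M21, near copies from BLAST 2.17.0 (at least 95% identity over 200 bases), and figures from matplotlib 3.10.9 (Python 3.11.15). The alternatives in the closing section were run for the members and the counts over all genes, not for other named genes. The values of 1 called list gene are not reported here.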

Additional observations from a re-analysis of the deposited data

How the results depend on the processing

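The count of genes called between genotypes, 2242, was 809 with no filter on low genes, 571 with the set number as a replicate block, 5269 over 10 libraries with no set term, 3398 with the set as a random effect, 4998 with the replicate number as a replicate block, and 97 to 2521 when a set or library was left out. Median-of-ratios scaling gave 1095 higher and 1096 lower genes and quantile normalization 1073 and 1039, against 892 and 1350. The 5 called members were 3 with no filter, 2 of 6 tested at a mean of at least 5 TPM, 3 with the set number as a replicate block, and 0 to 5 when a set or library was left out (0 without either wild-type set, with 5 at an unadjusted limma p under 0.05, and 2 without mutant set 1). The 2507 genes that differed between mutant sets were 1614 with no filter and 1126 to 2809 when a library was left out. The 5 members among them were 3 with no filter and 3 to 4 when a library was left out. They were 6 with median-of-ratios scaling and 6 without the variance trend. The 352 genes that differed between wild-type sets were 157 without the variance trend and 46 to 619 when a library was left out, and the 1 member among them 0 with no filter, median-of-ratios scaling, quantile normalization, robust moderation or no trend, and 0 to 2 when a library was left out, with 2 to 4 members at an unadjusted limma p under 0.05 in these fits. Uncalled changes that turned sign were Stmn1 (0.028, quantile normalization), Tubb3 (0.038 with the set number as a replicate block, -0.20 to 0.038 when a set or library was left out) and Nefl (-0.16 with that replicate block, -0.16 to 0.15 when a set or library was left out). The cause was not tested. Same-numbered sets did not deviate together (r = -0.16 and -0.09) and share 2 numbers only, so they were not taken as pairs. Log2 fold changes kept their sign under the alternatives run for Mapt (-0.82 to -0.56), Tagln3 (-1.55 to -1.04), Stmn2 (0.28 to 0.39), Stmn3 (1.04 to 1.32), Sox1 (0.81 to 1.20), Nefm (-1.77 to -0.61) and Crmp1 (-1.56 to -0.49). TPM without counts limits what can be said of Crmp1 and Sox1, the 2 lowest members.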
